A study of Homo sapiens with 15 samples.

Results

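The genes described here are 9 that mark and maintain the epithelial state of pluripotent cells: *EPCAM*, the claudins *CLDN3*, *CLDN4*, *CLDN6* and *CLDN7*, the splicing regulators *ESRP1* and *ESRP2*, and the transcription factors *GRHL2* and *OVOL1*. They were chosen by name, matched by gene symbol, and each was found once among the 19684 genes of the deposited tables. RNA had been taken from 5 groups of 3 libraries each, all derived from the human induced pluripotent stem cell (hiPSC) line BC1-GFP, a single line that carries a GFP reporter and is labelled wild type. The groups were undifferentiated hiPSCs, the neural retina (NR) layers of retinal organoids (ROs) on differentiation day 70 (D70-ROs) and day 150 (D150-ROs), and induced Müller glial cells (iMGCs). The iMGCs had been grown out as adherent cultures in serum from the NR of D150-ROs, and were collected on day 5 of passage 1 (P1 iMGCs) and of passage 5 (P5 iMGCs). Organoids were pooled within a library, and no group was sorted, so each value is an average over all cells of a sample.

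Human pluripotent stem cells grow as a polarized epithelial sheet. Their cells are joined by E-cadherin and sealed by tight junctions, whose strands are built from claudins. EPCAM is a homophilic adhesion molecule of simple epithelia that binds claudins and protects them from breakdown. ESRP1 and ESRP2 are RNA-binding proteins that select the epithelial exons of transcripts such as those of *FGFR2*, *CD44*, *CTNND1* and *ENAH*. GRHL2 activates junction genes directly, and OVOL1 represses the genes of the mesenchymal state, among them *ZEB1*. In turn ZEB1, ZEB2 and the SNAI proteins repress epithelial genes through E-box sequences. The neural retina is itself a polarized neuroepithelium, but it is held together by N-cadherin rather than E-cadherin and by adherens rather than claudin-based tight junctions, while Müller glia, the radial glia of the retina, form its outer limiting membrane.

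Gene levels were available in 2 units, the expected counts of RSEM, an estimate of the reads that belong to each gene, and FPKM, which scale these reads for transcript length and sequencing depth. Library totals lay between 11349600 and 20398755 expected counts, with the lowest in D70-RO replicate 2. The hiPSCs and ROs stood in one table and the iMGCs in another. The submitters' text names 2 sequencing companies without saying which libraries each one handled, so company and group cannot be told apart. It also gives 2 independent experiments for hiPSCs and ROs where the study's methods give 3, and where libraries share an experiment the p-values below measure only the spread between libraries. The labels were checked against marker genes. All 7 pluripotency markers were high in hiPSCs (summed level 3275 to 3485 FPKM) and 6 retinal progenitor markers in D70-ROs (937 to 1084 FPKM). In the iMGCs the Müller glial marker *RLBP1* was at 0 in every P1 library, and *SOX9* lay at 5.21 ± 0.252 FPKM (SD, n = 3) against 42.6 ± 3.81 in D150-ROs. Of the 5 Müller glial markers 4 were called lower in P1 iMGCs than in D150-ROs, and *VIM*, at 2160 ± 20.0 FPKM against 1065 ± 76.0, was called higher.

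In the hiPSCs all 9 genes were detected in every library, at levels that spanned more than 2 orders of magnitude per transcript length. *CLDN6* was the most abundant, ranked 123 of all 19684 genes by mean FPKM. *EPCAM* ranked 740 and *CLDN7* ranked 777, followed by *ESRP1* at rank 1456, *CLDN4* at 2528, *CLDN3* at 4221 and *ESRP2* at 4236. The lowest were *GRHL2* at 7347 and *OVOL1* at 10083. Summed over the 9 genes, the level was 932.6 to 1011 FPKM in hiPSCs, 9.19 to 16.3 at day 70 and 6.47 to 8.28 at day 150 in ROs, 1.21 to 2.06 in P1 iMGCs and 1.28 to 2.39 in P5 iMGCs. The lowest hiPSC library thus lay far above the highest library of any other group. Because these are bulk samples, fewer cells that express a gene and less RNA per cell cannot be told apart.

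**Figure D1:**
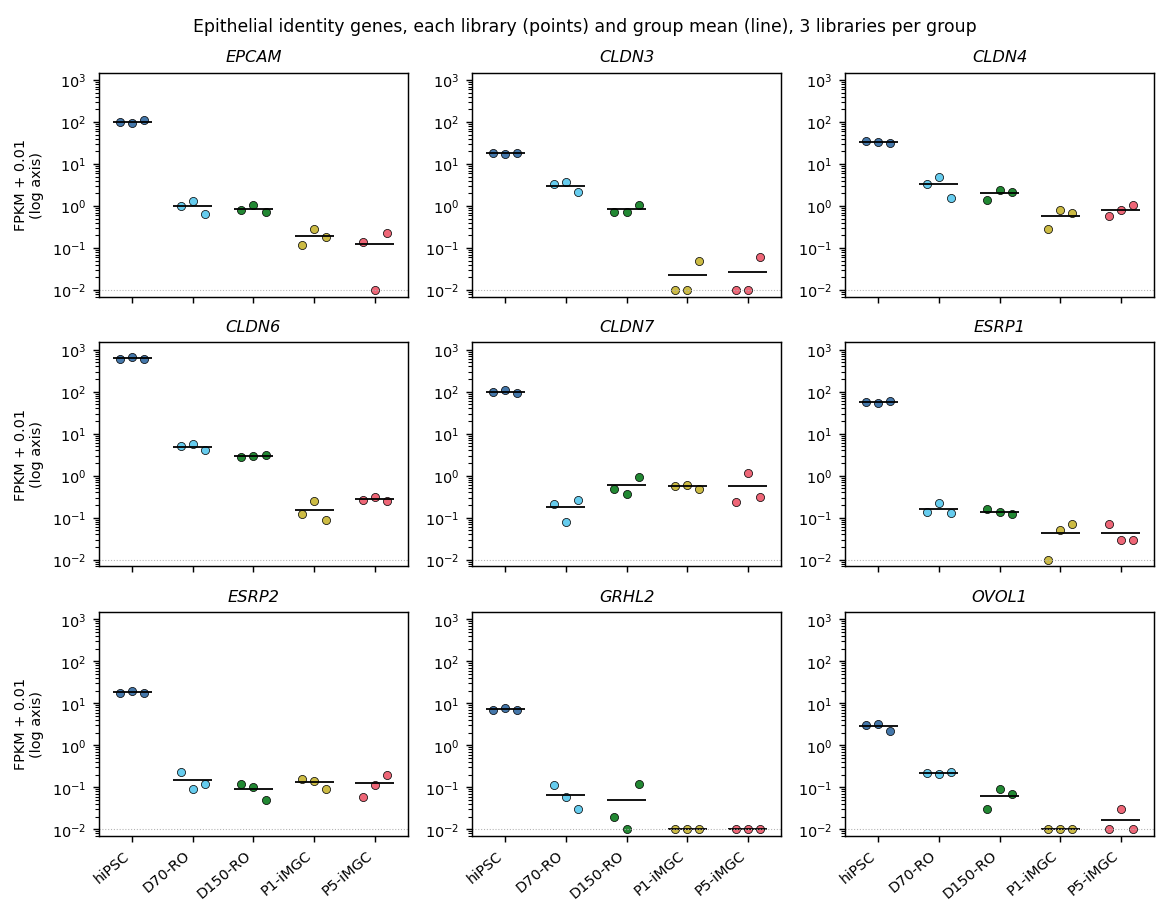
FPKM of the 9 epithelial identity genes in each of 15 libraries (points) with the group mean (line, n = 3), on a log axis after adding 0.01, so that points on the dotted line are at 0. In every panel the 3 hiPSC libraries lie above all others, and *GRHL2* is at 0 in all 6 iMGC libraries.

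*EPCAM* (ENSG00000119888, chromosome 2, 47345158 to 47387601 in GENCODE 29 on GRCh38) encodes the adhesion molecule that is widely used to sort pluripotent and carcinoma cells. Its FPKM was 102, 93.4 and 114 in the 3 hiPSC libraries, 0.97, 1.30 and 0.64 at day 70 and 0.79, 1.04 and 0.73 at day 150 in ROs. In P1 iMGCs it was 0.11, 0.28 and 0.17, and in P5 iMGCs 0.13, 0 and 0.22. The RO libraries were thus near 1% of the hiPSC mean (0.938% at day 70, 0.826% at day 150), the 2 ages overlapped, and the iMGC libraries lay below all RO libraries. *EPCAM* fell by 6.96 ± 0.21 on the log2 scale (SE) from hiPSCs to D70-ROs (edgeR quasi-likelihood test, adjusted p = 6.48e-10) and by 7.33 ± 0.15 from hiPSCs to D150-ROs (adjusted p = 1.905e-12). Both comparisons use the same hiPSC libraries.

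*CLDN6* (ENSG00000184697, chromosome 16, 3014712 to 3020071) encodes a claudin of embryonic epithelia that is largely silent in adult tissues. It was at 604, 676 and 587 FPKM in hiPSCs, at 4.96, 5.63 and 4.08 at day 70 and 2.78, 2.91 and 3.08 at day 150 in ROs. In P1 iMGCs it was at 0.11, 0.24 and 0.08, and in P5 iMGCs at 0.26, 0.30 and 0.24. It decreased from hiPSCs to D70-ROs, again to D150-ROs and again to iMGCs without any overlap of libraries between these stages. The first step was a log2 change of -7.16 ± 0.15 (adjusted p = 1.438e-10). *CLDN6* overlaps *TNFRSF12A*, which lies on the opposite strand, and its paralogue *CLDN9* lies 207 bases away. As the use of strand in counting is not given in the sources used here, reads of overlapping genes cannot be told apart. *TNFRSF12A* had another pattern, with 34.1 FPKM in hiPSCs, 3.23 at day 70 and 24.7 at day 150 in ROs and 56.6 in P1 iMGCs.

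*CLDN7* (ENSG00000181885, chromosome 17, 7259903 to 7263983) encodes the claudin that binds EPCAM in epithelial membranes. Its FPKM was 98.7, 107 and 94.5 in hiPSCs, and 0.20, 0.07 and 0.25 in D70-ROs, the largest decrease of the 9 genes in that comparison (log2 change -9.53 ± 0.23, adjusted p = 2.14e-10). It was the one gene of the 9 whose D150-RO libraries, at 0.48, 0.36 and 0.90, all lay above the D70-RO libraries. That difference rests on 26 counts against 8, and it fell under the expression filter and was not tested. *CLDN7* was at 0.57, 0.58 and 0.48 in P1 iMGCs and at 0.22, 1.15 and 0.30 in P5 iMGCs, within or near the range of the D150-ROs. The gene overlaps *ELP5* on the opposite strand, which was at 41.7 FPKM at day 70 and 33.6 at day 150 in ROs, and the reads of both cannot be told apart.

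*CLDN3* (ENSG00000165215, chromosome 7, 73768997 to 73770270) and *CLDN4* (ENSG00000189143, chromosome 7, 73799542 to 73832693) encode 2 closely related barrier claudins and are neighbours, with 29272 bases between them. *CLDN3* was at 18.4, 17.5 and 18.8 FPKM in hiPSCs, at 3.34, 3.73 and 2.17 at day 70 and 0.71, 0.72 and 1.05 at day 150 in ROs. It was at 0 in 2 of the 3 P1 libraries and in 2 of the 3 P5 libraries, with 1 count in each group. *CLDN4* was at 35.0, 33.1 and 31.7 FPKM in hiPSCs, at 3.31, 5.01 and 1.58 at day 70 and 1.42, 2.43 and 2.20 at day 150 in ROs. In P1 iMGCs it was at 0.27, 0.79 and 0.68, and in P5 iMGCs at 0.56, 0.80 and 1.04. These 2 genes kept the largest shares of their hiPSC level in D70-ROs, 16.9% for *CLDN3* and 9.93% for *CLDN4*. Their log2 changes from hiPSCs to D70-ROs were -2.72 ± 0.21 and -3.30 ± 0.29, with adjusted p = 5.713e-07 and 1.303e-06. In the iMGCs the neighbours differed: *CLDN4* held 61 counts in P1 and 78 in P5, and *CLDN3* held 1 in each.

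Promoter sequences are shown for the claudins, whose windows were the ones matched by symbol among the 9 genes. RefSeq promoter windows on GRCh38.p14 were used for *CLDN3*, *CLDN4*, *CLDN6* and *CLDN7*, the last with 2 start sites. The 250 bases before each start were searched on both strands. In the windows of *CLDN4*, *CLDN6* and the inner *CLDN7* start, GENCODE annotates all 250 bases as untranslated region of the same gene. These windows thus lie inside the gene in that annotation. In the *CLDN3* and outer *CLDN7* windows 0 bases are so annotated. The letters searched were AACCGGTT (the GRHL motif), CAGGTG (the E-box read by ZEB and SNAI proteins), CCGTTA (the OVOL motif) and GGGCGG (the GC box read by SP1 and its relatives). The window before *CLDN3* and the one before the outer start of *CLDN7*, both on the minus strand and written 5′ to 3′, are given first, with GC boxes in capitals. The last line holds the 30 bases before the inner start of *CLDN7*, with E-boxes in capitals.
CLDN3, chr7:73770271-73770520: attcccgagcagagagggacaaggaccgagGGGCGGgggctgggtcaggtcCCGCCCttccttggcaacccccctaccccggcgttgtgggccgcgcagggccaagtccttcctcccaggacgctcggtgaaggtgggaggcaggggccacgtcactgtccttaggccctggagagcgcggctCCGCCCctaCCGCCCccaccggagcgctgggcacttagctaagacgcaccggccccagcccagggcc
CLDN7, chr17:7263214-7263463: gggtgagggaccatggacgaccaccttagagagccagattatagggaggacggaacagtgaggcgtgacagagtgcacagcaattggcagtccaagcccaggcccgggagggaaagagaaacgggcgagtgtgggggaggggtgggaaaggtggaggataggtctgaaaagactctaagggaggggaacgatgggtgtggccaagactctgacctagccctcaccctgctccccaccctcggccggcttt
CLDN7, chr17:7262479-7262508: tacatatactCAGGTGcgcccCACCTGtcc

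*CLDN3* held 4 GC boxes, *CLDN6* held 2, *CLDN4* and the inner *CLDN7* window held 1 each, and the outer *CLDN7* window held none of the letters searched. The GC box letters are in 42.6% of the 35116 promoter windows of the table. The E-box letters occurred 4 times, all in the inner *CLDN7* window, 174, 135, 20 and 9 bases before the start, and 17.5% of all windows hold at least 1. The GRHL letters (0.117% of all windows) and the OVOL letters (2.45%) were in none of the 5 claudin windows. The matches did not overlap one another. A match is a description of the sequence, and binding was not measured in these samples.

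Over the 24 claudin genes of the tables, the summed level was 825 ± 52.0 FPKM in hiPSCs and 65.1 ± 1.98 at day 70 and 57.3 ± 3.55 at day 150 in ROs, 72.7 ± 1.62 in P1 iMGCs and 80.7 ± 1.25 in P5 iMGCs (SD, n = 3). *CLDN6* alone made up 75.4 ± 1.00% of the hiPSC sum, and *CLDN3*, *CLDN4*, *CLDN6* and *CLDN7* together made up 93.8 ± 0.528%. The share of these 4 genes was 17.5 ± 4.48% at day 70 and 11.1 ± 0.986% at day 150 in ROs, 1.76 ± 0.481% in P1 iMGCs and 2.04 ± 0.781% in P5 iMGCs. Other claudins made up the larger part in those groups. *CLDN12*, a claudin of broad expression that lacks the usual scaffold-binding end, made up 59.8 ± 1.41% in D150-ROs, where it stood at 34.3 ± 2.77 FPKM against 18.0 ± 2.11 in hiPSCs. That difference (log2 0.50 ± 0.11, adjusted p = 0.0007925) was under the fold limit of 2. *CLDN1*, a barrier claudin of the epidermis, made up 70.1 ± 0.701% in P1 and 75.2 ± 0.376% in P5 iMGCs. It was at 2.72, 2.88 and 3.26 FPKM in D150-ROs and at 51.4, 50.0 and 51.5 in P1 iMGCs, a log2 change of 4.75 ± 0.06 (adjusted p = 3.287e-18).

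**Figure D2:**
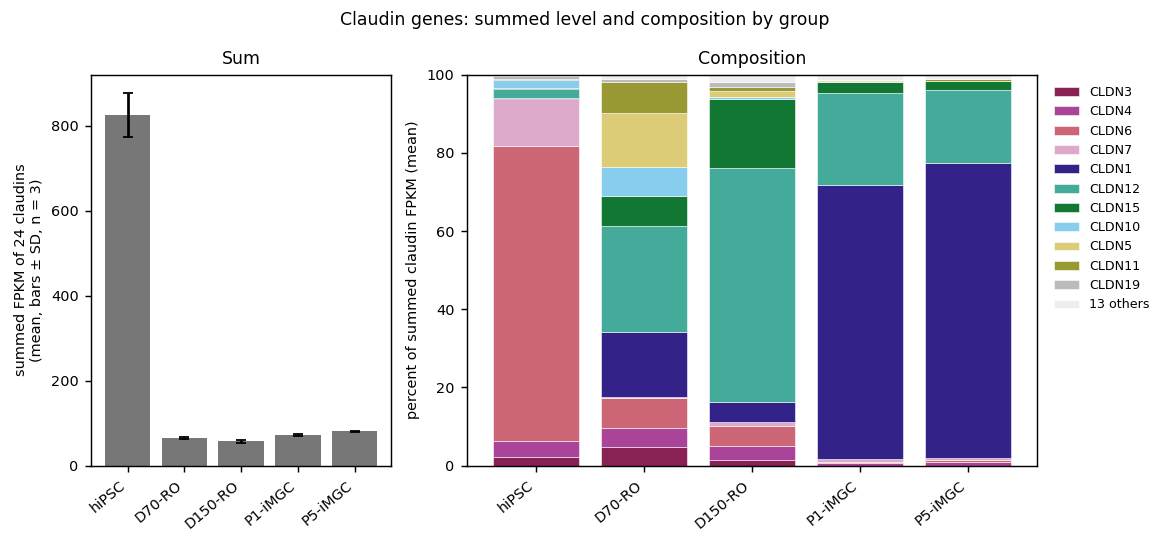
Left, summed FPKM of 24 claudin genes (mean with SD, n = 3), and right, the mean share of each claudin in that sum. *CLDN6* takes 75.4% in hiPSCs, *CLDN12* 59.8% in D150-ROs and *CLDN1* 70.1% in P1 iMGCs.

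*ESRP1* (ENSG00000104413, chromosome 8) and *ESRP2* (ENSG00000103067, chromosome 16, 68229111 to 68238102) encode the paired epithelial splicing regulators. *ESRP1* was at 57.4, 53.0 and 60.2 FPKM in hiPSCs, at 0.13, 0.21 and 0.12 at day 70 and 0.15, 0.13 and 0.11 at day 150 in ROs. In the iMGCs it was at 0, 0.04 and 0.06 in P1 and at 0.06, 0.02 and 0.02 in P5, or 5 counts in each group. *ESRP2* was at 17.8, 19.7 and 17.1 FPKM in hiPSCs, and its group means in the other stages lay between 0.08 and 0.137, with overlapping libraries. *ESRP1* made up 72.9% to 77.9% of the summed FPKM of both genes in hiPSCs, 37.1% to 72.4% in D70-ROs, 57.7% to 73.3% in D150-ROs, 0% to 42.9% in P1 and 9.52% to 54.5% in P5 iMGCs, where few reads were left. From hiPSCs to D70-ROs the log2 changes were -8.83 ± 0.18 for *ESRP1* (adjusted p = 1.438e-10) and -7.43 ± 0.22 for *ESRP2* (adjusted p = 6.152e-10). *ESRP2* overlaps *NFATC3* on the opposite strand, which was at 8.73 to 14.4 FPKM in hiPSCs and ROs, and the reads of the 2 genes cannot be told apart.

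Of the 6 genes listed as ESRP targets or as other splicing factors, 3 were called lower in D70-ROs than in hiPSCs, 3 were not called and none was called higher. Over all genes tested there, 21.1% were called lower and 22.5% higher. The median log2 change of the 6 was -0.75 against 0.02 over all genes. *CTNND1*, which encodes p120-catenin, was at 72.5 ± 6.02 FPKM in hiPSCs and 40.2 ± 2.01 in D70-ROs (log2 change -1.07 ± 0.11, adjusted p = 5.735e-06). *ENAH*, an actin regulator, was at 52.9 ± 2.23 FPKM in hiPSCs and 225 ± 11.6 in P1 iMGCs (log2 change 2.27 ± 0.08, adjusted p = 2.848e-10). *QKI*, a splicing factor of mesenchymal and glial cells, was at 55.1 ± 2.34 FPKM in hiPSCs and 76.0 ± 3.47 in P1 iMGCs (log2 change 1.09 ± 0.07, adjusted p = 4.315e-08). The calls of *CTNND1* and *QKI* were lost with limma on log2(FPKM + 1), where the log2 changes were -0.83 and 0.46. The deposited values are totals per gene, and the isoforms of these transcripts were not measured.

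*GRHL2* (ENSG00000083307, chromosome 8) was at 7.01, 7.81 and 6.92 FPKM in hiPSCs, at 0.10, 0.05 and 0.02 at day 70 and 0.01, 0 and 0.11 at day 150 in ROs. It had no count in any of the 6 iMGC libraries. Against the upper limit of 3 counts that no count allows over a group, it was at least 469-fold lower in P1 iMGCs than in hiPSCs with totals scaled by TMM factors, as in the tests. *OVOL1* (ENSG00000172818, chromosome 11, 65787022 to 65797219) was the lowest of the 9 genes in hiPSCs, at 2.95, 3.26 and 2.17 FPKM. It was at 0.21, 0.20 and 0.22 at day 70 and 0.02, 0.08 and 0.06 at day 150 in ROs, where the RO ages did not overlap. It had no count in P1 iMGCs, at least 116-fold lower than in hiPSCs on the same scale, and 1 count in P5 iMGCs. From hiPSCs to D70-ROs the log2 changes were -7.48 ± 0.26 for *GRHL2* and -3.88 ± 0.28 for *OVOL1* (adjusted p = 1.495e-09 and 2.845e-07). These limits cover counting error only.

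The comparison of D70-ROs with hiPSCs asks what the first 70 days of retinal induction left of the pluripotent epithelial genes. Genes were tested if they reached 1 FPKM in at least 3 of the 6 libraries, and were called at an adjusted p under 0.05 with a fold change of at least 2. All 9 genes were called lower in D70-ROs, where 21.1% of the 12954 genes tested were called lower and 22.5% higher. In the comparison of D150-ROs with hiPSCs all 9 were again called lower, where 29.0% of 13344 genes were called lower and 29.8% higher. At day 70 6 of the 9 (*EPCAM*, *CLDN7*, *ESRP1*, *ESRP2*, *GRHL2* and *OVOL1*) would not have passed the filter without the hiPSC libraries, and at day 150 *CLDN3* joined them, which made 7 of 9, so that their direction was fixed by the filter. The log2 changes at day 150 ran from -4.33 ± 0.15 for *CLDN4* to -9.23 ± 0.15 for *ESRP1*, with *CLDN3* at -4.81 ± 0.17, *CLDN6* at -8.23 ± 0.13 and *OVOL1* at -5.97 ± 0.35. P1 iMGCs compared with hiPSCs gave 9 lower calls, where 29.7% of 12666 genes were called lower and 26.1% higher, and there all 9 passed through the hiPSC libraries. The 3 comparisons share the hiPSC libraries.

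The comparison of D150-ROs with D70-ROs asks how these residual levels moved as the organoids matured. Only *CLDN3*, *CLDN4* and *CLDN6* were high enough to be tested, and each was called lower at day 150, where 16.7% of the 12855 genes tested were called lower and 16.6% higher. *CLDN3* passed the filter through the D70-RO libraries. It fell by 2.10 ± 0.31 on the log2 scale (adjusted p = 0.0003028) and *CLDN6* by 1.07 ± 0.17 (adjusted p = 0.0005246), both without overlap of libraries. *CLDN4* fell by 1.04 ± 0.37 (adjusted p = 0.02845), and its libraries overlapped. The *CLDN4* call rests on single libraries, since its change was -0.70 without D70-RO replicate 2 and -1.37 without D70-RO replicate 3, and it was kept only in the latter case among the 6 fits that leave out 1 library. D70-RO replicate 2 had the highest level of *EPCAM*, *CLDN3*, *CLDN4*, *CLDN6* and *ESRP1* within its group. The same library had the highest summed epithelial keratins (49.4 FPKM, lowest 35.1) and pluripotency markers (9.37 FPKM, lowest 6.27), and the lowest summed repressors of the epithelial state (42.0 FPKM, highest 63.9). The part of that library's composition or depth in the result was not tested beyond leaving it out. Of the 6 untested genes, *OVOL1* was lower at day 150 and *CLDN7* higher without overlap, and *EPCAM*, *ESRP1*, *ESRP2* and *GRHL2* overlapped. The share of all genes without overlap between these ages was not computed, so the tally has no background beside it. At any fold change, 9499 of the 12855 genes tested had an adjusted p under 0.05 in edgeR's test.

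The comparison of P1 iMGCs with D150-ROs asks what happened to these genes when NR cells were taken into adherent culture. *CLDN4* and *CLDN6* could be tested, and both were called lower in P1 iMGCs, where 24.1% of the 12896 genes tested were called lower and 20.0% higher. *CLDN6* fell by 3.21 ± 0.37 on the log2 scale (adjusted p = 7.486e-07) and *CLDN4* by 1.10 ± 0.33 (adjusted p = 0.00616). Without P1 iMGC replicate 1, which had the lowest *CLDN4*, the change of *CLDN4* was -0.73 and it was not called. Both genes passed the filter through the D150-RO libraries alone. Over all 9 genes, 6 were lower in P1 iMGCs without overlap of libraries (*EPCAM*, *CLDN3*, *CLDN4*, *CLDN6*, *ESRP1* and *OVOL1*) and 3 overlapped (*CLDN7*, *ESRP2* and *GRHL2*). The share of all genes without overlap was not computed, so this count has no background beside it. Differences were common here, as 11206 of the 12896 genes tested had an adjusted p under 0.05 at any fold change in edgeR's test. For *CLDN3* the counts were 1 against 51, a log2 ratio of -5.09 on the same scale as the tests, with a 95% counting interval from -10.42 to -2.54. The groups come from separate tables, and the counts and FPKM differ in scale between them. With limma on log2(FPKM + 1) the median change over all genes moved by -0.55. The share of higher calls among all calls went from 45.4% to 22.9%, and *CLDN4* (log2 change -0.93) was no longer called. The direction of both claudins could not change in that fit, because the filter on FPKM had fixed it.

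P5 iMGCs were compared with P1 iMGCs to see whether passaging changed the residual levels. None of the 9 genes reached the filter in edgeR's test, where 2.92% of the 11366 genes tested were called in either direction. The libraries of the 2 passages overlapped for all 9, and the share of all genes that overlapped was not computed. Without a filter on low levels none of the 9 was called by edgeR at an adjusted p under 0.05. Over all genes 4029 of 16194 were under that limit, at any fold change. For *CLDN4*, the highest of the 9, the log2 difference was 0.43 ± 0.33. A difference at these levels, of 0 to 78 counts per group, may not have been detectable.

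The residual levels were set beside those of 7 pluripotency markers as a measure of how much pluripotent RNA each group held. In D70-ROs the markers stood at 0.164% (*ZFP42*) to 0.345% (*L1TD1*) of their hiPSC means, and 7 of the 9 epithelial genes stood above that range, up to 16.9% for *CLDN3*, 9.93% for *CLDN4* and 7.52% for *OVOL1*. *ESRP1*, at 0.270%, lay within the range of the markers, and *CLDN7*, at 0.173%, near its lower end. In D150-ROs the markers stood at 0.171% to 0.309%, and 8 of the 9 genes were above them, led by *CLDN4* at 6.07% and *CLDN3* at 4.54%, with *ESRP1* at 0.229% within the range. In P1 iMGCs the highest marker was at 0.0134%, and *CLDN4* was at 1.74%, *ESRP2* at 0.660% and *CLDN7* at 0.543%. In P5 iMGCs 4 of the 9 genes stood above the highest marker, which was at 0.173%, again led by *CLDN4* at 2.41%, and 1 of the 4, *OVOL1*, rests on 1 count in 1 library. For genes that are low in hiPSCs, such as *OVOL1* with 31 counts over the D70-ROs, a few reads make a large share.

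**Figure D3:**
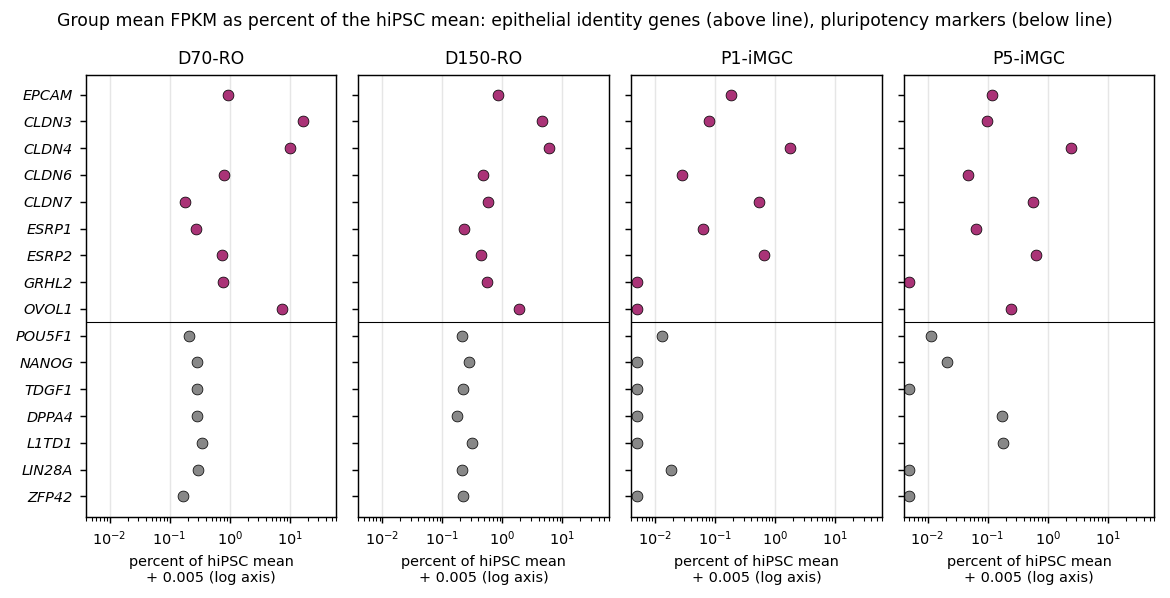
Mean FPKM of each group as a percentage of the hiPSC mean, on a log axis after adding 0.005, for the 9 epithelial genes (purple) and 7 pluripotency markers (grey). In ROs the markers lie between 0.164% and 0.345%, and *CLDN3* and *CLDN4* lie above 4% at both ages.

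The junction genes that surround these 9 did not move as one. Of 22 listed junction genes 21 were tested in D70-ROs against hiPSCs, of which 14 were called lower, 7 were not called and none was called higher. Over all genes tested there, 21.1% were called lower and 22.5% higher. Of the 14 junction genes called lower, 6 passed the filter only through the hiPSC libraries. *CDH1*, which encodes E-cadherin, was at 133, 124 and 104 FPKM in hiPSCs, at 0.40, 0.49 and 0.36 at day 70 and 0.71, 0.46 and 0.85 at day 150 in ROs and at 0.05, 0.05 and 0.03 in P1 iMGCs. It fell by 8.40 ± 0.19 on the log2 scale from hiPSCs to D70-ROs (adjusted p = 1.683e-10), beside -8.83 for *ESRP1*. *TJP1*, the tight junction scaffold ZO-1, was at 28.2 ± 2.02 FPKM in hiPSCs, 16.5 ± 1.93 at day 70 and 41.3 ± 2.79 at day 150 in ROs, within the fold limit in both comparisons with hiPSCs. *JUP*, plakoglobin, was at 79.1 ± 6.60 FPKM in hiPSCs and 29.8 ± 2.56 in D150-ROs. In P1 iMGCs against D150-ROs 8 of 17 tested junction genes were called lower and 5 higher, where 24.1% of all genes were called lower and 20.0% higher. Of the 8, 5 passed the filter only through the D150-RO libraries, and of the 5 higher ones 1 only through the P1 libraries. With limma on log2(FPKM + 1) 8 were called lower and 3 higher. *DSP*, the desmosomal linker desmoplakin, was among the genes called higher, at 138 ± 6.03 FPKM against 15.0 ± 0.484 (log2 change 3.90 ± 0.06, adjusted p = 8.328e-18). *F11R*, a junctional adhesion molecule, rose there by 2.20 ± 0.09 on the log2 scale, to 12.9 ± 1.81 FPKM against 98.4 ± 14.5 in hiPSCs.

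Keratins of simple epithelia decreased with the 9 genes in organoids and rose in the cultured cells. All 4 listed keratins were called lower in D70-ROs and in D150-ROs than in hiPSCs, where 21.1% and 29.0% of all genes were. *KRT7* passed the filter only through the hiPSC libraries at both ages, and *KRT19* at day 150. All 4 were called higher in P1 iMGCs than in D150-ROs, where 20.0% of all genes were. Of these, 2 (*KRT7* and *KRT19*) had passed the filter only through the P1 libraries. *KRT18*, the partner of *KRT8* in simple epithelia, was at 313, 340 and 320 FPKM in hiPSCs, at 9.26, 11.2 and 7.51 at day 70 and 2.12, 1.60 and 2.09 at day 150 in ROs. In P1 iMGCs it was at 188, 202 and 192 FPKM and in P5 iMGCs at 95.4, 87.3 and 88.9, and no group overlapped another. *KRT7*, a keratin of glandular and ductal epithelia, was at 40.2, 45.1 and 45.3 FPKM in P1 iMGCs against 4.92, 7.06 and 7.87 in hiPSCs (log2 change 3.07 ± 0.12, adjusted p = 6.434e-10). *KRT19* was at 0.533 ± 0.116 FPKM in D150-ROs, 7.25 ± 0.318 in P1 and 1.09 ± 0.539 in P5 iMGCs, against 139 ± 1.00 in hiPSCs. None of the 9 genes exceeded 1.15 FPKM in any iMGC library. *KRT8* and *KRT18* overlap on opposite strands, and their reads cannot be told apart there.

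**Figure D4:**
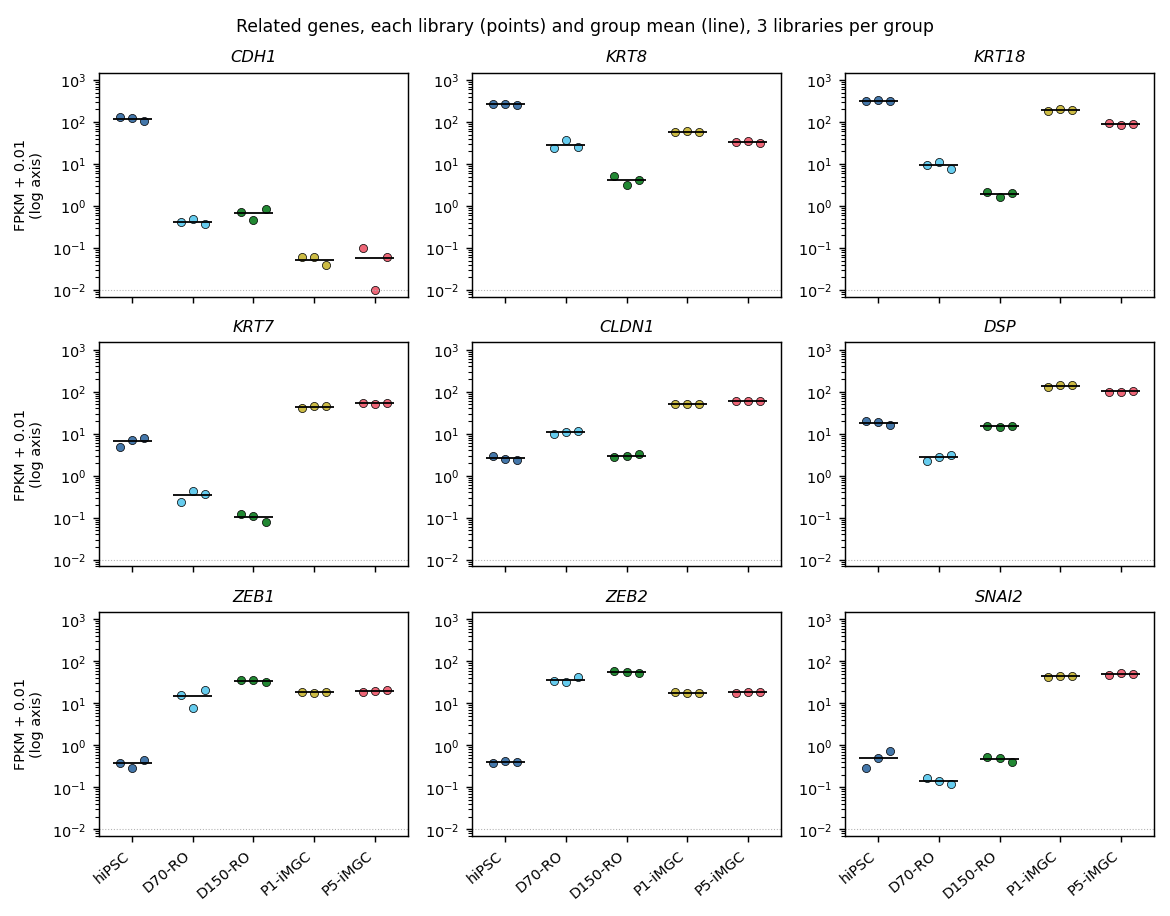
FPKM of 9 genes related to the epithelial state in each of 15 libraries (points) with the group mean (line, n = 3), on a log axis after adding 0.01. *KRT8*, *KRT18*, *KRT7*, *CLDN1* and *DSP* are higher in all iMGC libraries than in all D150-RO libraries, and *CDH1* is lower.

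Genes of epithelial surface and trafficking proteins were mostly lower outside the hiPSCs. Of 11 listed genes 10 were tested in D70-ROs against hiPSCs and 9 were called lower, where 21.1% of all genes were, but 8 of the 9 passed the filter only through the hiPSC libraries. *AP1M2*, the epithelial clathrin adaptor subunit, was at 114 ± 4.80 FPKM in hiPSCs and 0.447 ± 0.129 in D70-ROs (log2 change -8.61 ± 0.19, adjusted p = 1.5e-10). *SPINT1* and *SPINT2* encode inhibitors of membrane serine proteases, and *SPINT2* kept the higher level, 160.3 ± 1.62 FPKM in hiPSCs and 74.7 ± 7.71 in D70-ROs. *CDS1*, an enzyme of phospholipid synthesis, was the one tested gene not called, at 5.68 ± 1.18 and 6.19 ± 0.658 FPKM. In P1 iMGCs against hiPSCs 10 of 10 tested genes of this list were called lower, where 29.7% of all genes were. Of the 10, 8 had passed only through the hiPSC libraries.

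Of 10 other epithelial transcription factors, 5 were tested in D70-ROs against hiPSCs and all 5 were called lower, where 21.1% of all genes were. All 5 passed the filter through the hiPSC libraries, so the count could not have come out otherwise. *OVOL2*, the paralogue of *OVOL1*, was at 4.18 ± 0.743 FPKM in hiPSCs, with 388 counts, and had no count in D70-ROs and in iMGCs of either passage and 1 count in D150-ROs. *GRHL1*, a paralogue of *GRHL2*, moved otherwise: it was at 0.670 ± 0.226 FPKM in hiPSCs, 0.897 ± 0.400 at day 70 and 4.76 ± 0.296 at day 150 in ROs (log2 change from D70-ROs 1.95 ± 0.19, adjusted p = 2.442e-05), and at 0.183 ± 0.0666 in P1 iMGCs. In D150-ROs against D70-ROs *GRHL1* had passed the filter only through the D150-RO libraries. *ELF3*, an epithelial ETS factor, was at 5.40 ± 0.656 FPKM in hiPSCs, 0.160 ± 0.0458 in D150-ROs, 1.55 ± 0.255 in P1 and 4.51 ± 0.0723 in P5 iMGCs. It was called higher in P5 than in P1 (log2 change 1.63 ± 0.15, adjusted p = 2.86e-09). *KLF5* was also called higher in P1 iMGCs than in D150-ROs, at 3.95 ± 0.868 against 1.49 ± 0.442 FPKM.

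**Figure D5:**
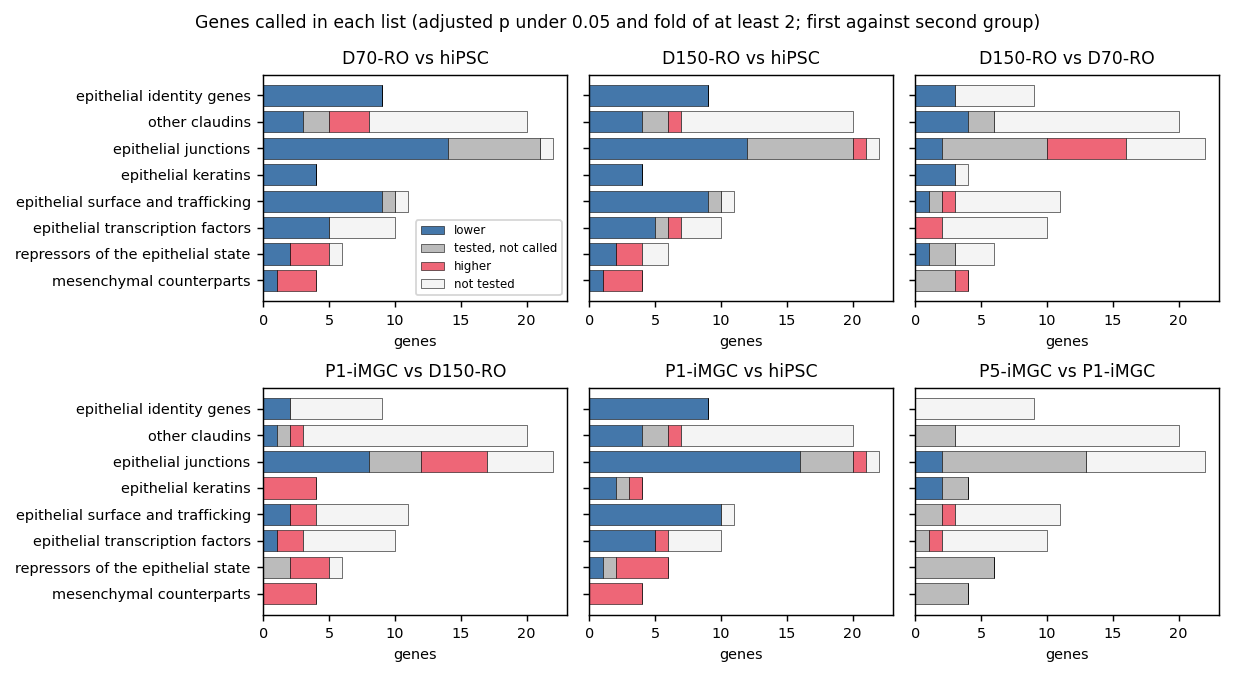
Number of genes called lower (blue), called higher (red), tested and not called (grey) and not tested (white) in 8 gene lists and 6 comparisons, the first group named against the second. The 9 epithelial identity genes are called lower or not tested in every comparison, and the 4 keratins are called higher in P1 iMGCs against D150-ROs.

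Of the 6 listed repressors of the epithelial state, 4 were under 1 FPKM in every hiPSC library. *SNAI1* and *TWIST2* instead had their highest group means in hiPSCs. *TWIST2* was at 2.16 ± 0.219 FPKM there, 0.0867 ± 0.0902 in D70-ROs and 1.48 ± 0.462 in P1 iMGCs. *ZEB1* was at 0.37, 0.28 and 0.43 FPKM in hiPSCs, at 15.6, 7.58 and 20.3 at day 70 and 34.9, 35.7 and 32.6 at day 150 in ROs, a log2 change of 6.02 ± 0.35 from hiPSCs to D70-ROs (adjusted p = 4.738e-08). *ZEB2* was at 0.383 ± 0.0252 FPKM in hiPSCs, 35.9 ± 4.67 at day 70 and 54.8 ± 3.83 at day 150 in ROs (log2 change at day 70 6.21 ± 0.17, adjusted p = 4.659e-10). *SNAI2* was at most 0.73 FPKM in every hiPSC and RO library and at 43.2, 44.7 and 44.9 FPKM in P1 iMGCs (log2 change from D150-ROs 7.39 ± 0.11, adjusted p = 6.194e-18). *SNAI1* was at 8.35 ± 0.996 FPKM in hiPSCs and 0.577 ± 0.0503 in D70-ROs, the direction of the 9 genes. Of the 5 repressors tested, 3 were thus called higher and 2 lower in D70-ROs, where 22.5% of all genes were called higher and 21.1% lower. The 3 higher calls passed the filter only through the D70-RO libraries and the 2 lower ones only through the hiPSC libraries. Their directions were thus fixed by the filter. In P1 iMGCs against D150-ROs 3 of 5 were called higher, all through the P1 libraries alone, and none lower, where 20.0% of all genes were called higher and 24.1% lower. That split depended on the scaling: *ZEB1* was at 18.2 ± 0.236 FPKM and *ZEB2* at 17.8 ± 0.602 in P1 iMGCs, each below all D150-RO libraries, and with limma on log2(FPKM + 1) 2 of the 5 were called higher and *ZEB2* lower (log2 change -1.57). No repressor was called between P5 and P1 iMGCs at the 2-fold limit.

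Of the 4 mesenchymal counterparts 3 were called higher and *FN1* lower in D70-ROs than in hiPSCs. Over all genes tested there, 22.5% were called higher and 21.1% lower. All 4 counterparts were called higher in P1 iMGCs than in D150-ROs, where 20.0% of all genes were. With limma on log2(FPKM + 1) 2 of these 4 calls were kept, and *CDH2*, at 182 ± 1.85 FPKM in P1 iMGCs, had a log2 change of 0.60 there. *CDH2*, which encodes N-cadherin, was at 9.03 ± 0.106 FPKM in hiPSCs, 109 ± 3.00 at day 70 and 120.1 ± 7.73 at day 150 in ROs (log2 change at day 70 3.47 ± 0.11, adjusted p = 1.022e-09). *FN1*, fibronectin, was at 33.4 ± 4.01 FPKM in hiPSCs, 3.81 ± 0.778 at day 70 and 8.95 ± 1.61 at day 150 in ROs and 8340 ± 191 in P1 iMGCs. *CDH1* was above *CDH2* in every hiPSC library and below it in every library of the other groups.

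Markers of other cell types that could carry claudins or keratins were read in every group. Of 6 markers of surface ectoderm and cornea, all were under 1 FPKM in every library of every group, with summed levels of at most 0.76 FPKM, and *KRT14* and *KRT3* were at 0 throughout. Of 5 endoderm markers all were under 1 FPKM in ROs, with summed levels of 0.08 to 0.28 FPKM. *SOX17*, *FOXA2* and *GATA4* were at 0 in iMGCs of both passages. The 5 endoderm markers still summed to 4.31 to 4.49 FPKM in P1 and 14.8 to 16.7 in P5 iMGCs. The 1 endoderm marker tested was called higher in P1 iMGCs than in D150-ROs (log2 change 6.99), having passed the filter only through the P1 libraries. It was also called higher in P5 than in P1 iMGCs (log2 change 2.04). The 6 choroid plexus markers summed to 5.36 to 13.2 FPKM at day 70 and 21.7 to 28.4 at day 150 in ROs, mostly *TTR* at day 150 (21.8 ± 3.63 FPKM), and 0.95 to 1.39 in P1 iMGCs, where *TTR* and *LMX1A* were at 0. The 7 pigment epithelium markers summed to 96.4 to 148 FPKM in D70-ROs, mostly *PMEL* (102 ± 25.2 FPKM), which was also at 127 ± 9.20 in hiPSCs, and to 15.7 to 20.1 in D150-ROs, with *TYR* at 0 there. The fall of that sum was mostly that of *PMEL*, which was at 1.29 ± 0.0200 FPKM in D150-ROs, while *DCT* was at 15.3 ± 1.09 at day 70 and 12.8 ± 2.54 at day 150. The part of any of these cell types in the residual claudin levels was not tested.

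Across the 15 libraries the 9 genes had near-parallel profiles, as a description of points that fall into 3 high hiPSC libraries and 12 low ones. Pearson's r on log2(FPKM + 1) over the 36 pairs ran from 0.857 (*CLDN3* with *CLDN7*) to 0.999, with a median of 0.975. Among 14078 other genes with a group mean of at least 1 FPKM, those most like the mean profile of the 9 were *LIN28A* (r = 0.998), *EPHX3* (0.998), *KCNK5* (0.998), *LAMC3* (0.997) and *ADAMTS7* (0.997), and 105 genes had r of at least 0.99. For *EPCAM* alone the nearest were *TDGF1*, *LIN28A* and *CNMD*, each at r = 0.998. The libraries share depth and preparation within each group, and no p is given. The genomic neighbours of the 9 genes did not share the pattern throughout. *CALM2*, a neighbour of *EPCAM*, was at 167 FPKM in hiPSCs and 484 in D70-ROs.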

How the data were processed

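Poly(A) RNA of 15 libraries, 3 in each of 5 groups, had been sequenced in pairs, and per the study's methods the authors used HISAT2 for mapping, StringTie for transcript assembly and RSEM for gene quantification. Versions, genome build, annotation and strand use in counting are not given in the sources used here. The authors deposited RSEM expected counts and FPKM for each library, in 1 table for hiPSCs and ROs and 1 for iMGCs. Another 12 columns of per-sample values, whose iMGC names give no passage, were not used. Groups and replicate numbers came from the sample titles.

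Expected counts were rounded to whole numbers. All 19684 identifiers were found in GENCODE 29, which gave symbols and positions on GRCh38. Each of the 6 comparisons was fitted on its own 6 libraries with edgeR 4.0.16 (R 4.3.3), with TMM factors and the quasi-likelihood test, over genes with at least 1 FPKM in at least 3 of the libraries. P-values were Benjamini-Hochberg adjusted over all genes tested, and a call needed an adjusted p under 0.05 and a 2-fold change. Counts of 0 over a group were replaced by a floor of 3 counts, and groups with 1 to 3 counts were given a 95% interval. These cover counting error only. The fits were tested on simulated data. Alternatives were no filter, filterByExpr, upper-quartile factors, DESeq2 1.42.0, all 15 libraries in 1 fit, a test against a 2-fold change, limma 3.58.1 on log2(FPKM + 1) and log2(FPKM + 0.1), a replicate block, and leaving out each library.

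The 9 genes and the other lists were chosen with earlier results of these data known. Named besides the 9 were, of each list, the 3 genes with the highest mean FPKM in hiPSCs and the 3 highest in the other groups, along with a few set by name. The GC box was added to the motifs after the promoters had been seen. Promoters came from RefSeq. A few genes of the lists are not reported here.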

Additional observations from a re-analysis of the deposited data

How the results depend on the processing

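No call of the 9 genes reversed direction. Some medians of other lists changed sign with limma on log2(FPKM + 1). For the 6 ESRP targets and splicing factors the median log2 change between P1 iMGCs and D150-ROs went from 0.84 to -0.05. Between D150-ROs and hiPSCs it went from -0.10 to 0.35. For surface and trafficking genes it went from 0.14 to -0.16 between P1 iMGCs and D150-ROs. All 9 genes remained called lower against hiPSCs in D70-ROs, D150-ROs and P1 iMGCs under every alternative run. Of the 9, 6 at day 70, 7 at day 150 and all 9 in P1 iMGCs passed the filter only through the hiPSC libraries. Alternatives that kept this filter could not have changed the direction of those genes. In P1 iMGCs against D150-ROs *CLDN4* and *CLDN6* likewise passed it only through the D150-RO libraries. Between D150-ROs and D70-ROs the 3 calls became 4 with no filter, which added *OVOL1* (log2 change -2.11). Over all genes 2647 of 17251 were called lower in that setting. The calls of the 9 fell to 1 with the test against a 2-fold change and with limma at either pseudocount. Of 12855 genes, that test called 1418 lower, and limma called 1302 at pseudocount 1 and 1559 at 0.1. On leaving out a library the calls of the 9 fell to between 2 and 3, where 2009 to 2260 genes were called lower. Between P1 iMGCs and D150-ROs the 2 calls became 4 with no filter and with filterByExpr, which added *EPCAM* (log2 change -1.57 with no filter) and *CLDN3*. Over all genes 4167 of 17164 were called lower with no filter and 3666 of 14097 with filterByExpr. The calls of the 9 became 1 with the test against a 2-fold change and with limma on log2(FPKM + 1). These settings called 2688 and 4478 of 12896 genes lower. On leaving out a library the calls of the 9 lay between 1 and 2, where 3092 to 3160 genes were called lower. Over all genes, calls between D150-ROs and D70-ROs went from 4276 to 2830 with the test against a 2-fold change. Those between P5 and P1 iMGCs went from 332 to 694 with no filter, 569 with filterByExpr, 161 with the test against a 2-fold change and 152 with limma on log2(FPKM + 1). Apart from the wider or narrower set of genes tested, the cause was not tested.

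The replicate numbers did not clearly pair the libraries. Correlations of same-numbered libraries ran from -0.0795 to 0.3497, the highest being those of replicates 2 (0.3497) and 3 (0.1368) of D70-ROs and hiPSCs. Of 18 checks, 1 for each replicate number in each of the 6 comparisons, the library correlated best with its own number in 10. The same libraries recur across these checks. With the replicate block 5662 genes were called between D70-ROs and hiPSCs, 7845 between D150-ROs and hiPSCs, 4317 between D150-ROs and D70-ROs, 5691 between P1 iMGCs and D150-ROs, 7079 between P1 iMGCs and hiPSCs and 333 between P5 and P1 iMGCs. With limma on log2(FPKM + 1) the share of higher calls moved from 49.8% to 63.3% between D150-ROs and D70-ROs and from 46.8% to 35.6% between P1 iMGCs and hiPSCs. At levels under 1 FPKM, most residual values rest on fewer than 80 counts per group. The bounds for *GRHL2* and *OVOL1* in P1 iMGCs against hiPSCs were 568 and 141 with plain library totals, a comparison added after seeing the data.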
